A study of Mus musculus with 9 samples.

Results

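Genes that place or make the programmed DNA double-strand breaks of meiosis were followed in mouse male germ cells as they entered meiosis. Members were taken from a list of 7 genes (Spo11, Mei1, Mei4, Prdm9, Zcwpw1, Hells and Ankrd31). Of these, 6 had a row among the 24505 genes of the count table, and Ankrd31 was not analysed here. The question was which members already had their preleptotene mRNA level in spermatogonia and which rose at preleptonema, and whether either set changed when retinoic acid (RA) synthesis was blocked.

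Meiotic recombination starts with DNA breaks that the cell makes on purpose. PRDM9 binds DNA and methylates histone H3 at the sites where breaks will form, HELLS is a chromatin remodeller that opens those sites with PRDM9, and ZCWPW1 reads the methyl marks that PRDM9 leaves. SPO11 is the catalytic subunit that cuts the DNA together with its partner TOPOVIBL, the product of Top6bl, while MEI4, REC114, IHO1 and MEI1 are accessory proteins needed for break formation in the mouse, and HORMAD1 brings them to the chromosome axis.

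Germ cells of Uchl1-EGFP mice, a line of C57BL/6 origin crossed out to CD-1, were sorted by fluorescence and their mRNA was sequenced. EGFP is under the Uchl1 promoter in this line and is bright in spermatogonia but dim in preleptotene (PL) spermatocytes, so each library holds a sorted fraction rather than 1 pure cell type. The sample records describe testes pooled from several pups of a litter. Mice of all groups were fed the RA synthesis inhibitor WIN 18,446 (100 µg/g daily, beginning at P1) and were injected once with RA at P11 (10 µl, 10 µg/µl). The 3 groups, with 3 libraries each, were intermediate and type B (In/B) spermatogonia at P17, PL spermatocytes at P19 from mice given no more WIN 18,446 (RA-sufficient), and PL spermatocytes at P19 from mice in which daily WIN 18,446 was continued (RA-deficient). The study describes the In/B spermatogonia as RA-sufficient. RA-deficient PL therefore differed from In/B in continued WIN 18,446 as well as in stage and age, and these cannot be told apart in that comparison. No group without WIN 18,446 and RA, and no stage before In/B, was analysed here.

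Total counts ran from 12612959 to 27042274 per library, so that 3 counts corresponded to between 0.113 and 0.221 CPM (counts per 1000000 counts, scaled over the 9 libraries). Depth and detection differed by group. RA-deficient PL had at least 25048240 counts and 14769 to 15327 genes with a count. RA-sufficient PL had at most 21833333 counts and 17541 to 18434 genes, and In/B 16758 to 18002 genes. The part of this in the members' values was not tested. The germ cell markers Ddx4 and Dazl summed to 1578 to 1798 CPM in In/B, 1371 to 1621 CPM in RA-sufficient PL and 2509 to 2866 CPM in RA-deficient PL. Against RA-sufficient PL, Dazl was 1.98-fold higher in RA-deficient PL (adjusted p 0.00257) and Ddx4 1.19-fold (0.129), by edgeR's quasi-likelihood test. Mean Ddx4 was 536 CPM in In/B, 413 CPM in RA-sufficient PL and 493 CPM in RA-deficient PL. Markers of differentiating spermatogonia (Kit, Sohlh1 and Dmrt1) summed to 928 to 1224 CPM in In/B and 104 to 120 CPM in RA-sufficient PL. In RA-deficient PL they summed to 1082, 1072 and 147 CPM in replicates 1, 2 and 3. In this sum replicates 1 and 2 stood at the In/B level, against their PL label, while replicate 3 stood near RA-sufficient PL. The 3 genes differed. Dmrt1, which is also made by Sertoli cells, was at 111 to 485 CPM in RA-deficient PL, below its 534 to 711 CPM in In/B. Sohlh1 was at 16.3 to 65.2 CPM against 63.4 to 108 CPM, with overlap. By staining, the study marked residual KIT protein, declining with age, in spermatocytes of RA-deficient testes. Kit alone was at 561, 521 and 20.3 CPM in the 3 RA-deficient libraries, 327 to 404 CPM in In/B and 20.2 to 41.0 CPM in RA-sufficient PL, so that replicates 1 and 2 were above In/B. Meiotic genes placed these libraries otherwise. Rad51ap2 was at 92.5 to 213 CPM in RA-deficient PL against 1.29 to 2.03 CPM in In/B, and Sycp3 at 532 to 701 CPM against 81.0 to 104 CPM. Exons of Chpt1 on the opposite strand cover 52.2% of the Sycp3 exons, and the part of Chpt1 in the Sycp3 counts was not tested. Rec8 overlapped between these groups. Markers of undifferentiated spermatogonia (Zbtb16, Gfra1, Id4, Etv5 and Nanos2) summed to 194 to 341 CPM in In/B and 128 to 182 CPM in RA-sufficient PL. In RA-deficient PL they summed to 227, 183 and 298 CPM in replicates 1, 2 and 3, so that replicate 3 was the highest PL library for this list. Cyp26a1 is an RA-induced gene whose product breaks down RA. It was at 13.8, 9.76 and 13.4 CPM in RA-sufficient PL and at 0, 0.475 and 1.18 CPM in RA-deficient PL, without overlap. In In/B, also described as RA-sufficient, Cyp26a1 was at 0 to 0.447 CPM. Like the Sertoli cell markers below, Cyp26a1 was highest in RA-sufficient PL, and the part of Sertoli cells in its values was not tested. Stra8, also RA-induced, was at 444, 126 and 121 CPM in RA-sufficient PL and 377, 365 and 81.5 CPM in RA-deficient PL, with overlap. All 4 RA response genes summed to 57.7 to 166 CPM in In/B, 462, 138 and 137 CPM in RA-sufficient PL and 378, 366 and 84.2 CPM in RA-deficient PL. RA-deficient replicates 1 and 2 differed from each other by a root mean square of 0.95 on the log2 scale over expressed genes, and from replicate 3 by 1.42 and 1.48. Results that rest on the RA-deficient group are therefore also given, gene by gene or by list, with replicate 3 alone.

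Other cell types also moved with the groups. The 7 measured Sertoli cell markers summed to 66.3 to 342 CPM in In/B, 2789 to 3618 CPM in RA-sufficient PL and 286 to 503 CPM in RA-deficient PL. Markers of later spermatocytes and spermatids were at 907 CPM in RA-sufficient replicate 1, 277 and 242 CPM in replicates 2 and 3, 32.1 to 83.9 CPM in In/B, and 5.56, 7.96 and 154 CPM in RA-deficient PL. Leydig markers were at 9.45 to 15.9 CPM in In/B, 32.4 to 37.7 CPM in RA-sufficient PL and 12 to 20.2 CPM in RA-deficient PL. Peritubular and stromal markers were at 73.7 to 83.0, 159 to 200 and 111 to 119 CPM in the same order. Both sums were highest in RA-sufficient PL, but the stromal genes differed. Vim was at 3.47 to 18.3, 112 to 150 and 14.7 to 28.3 CPM. Mean Col1a1 was at 56.7, 11.7 and 64.4 CPM, lowest in RA-sufficient PL. By group mean, Vim and Acta2 were highest in RA-sufficient PL, and Col1a1, Dcn, Pdgfra and Myh11 were not. Macrophage and blood markers were between 3.57 and 13.7 CPM in all libraries. Ptprc from that list and the Leydig marker Insl3 were at 0 in In/B and RA-deficient PL. The part of these differences in the members' values was not tested. In these sorted bulk samples, fewer cells that express a gene and less mRNA per cell cannot be told apart.

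**Figure D1:**
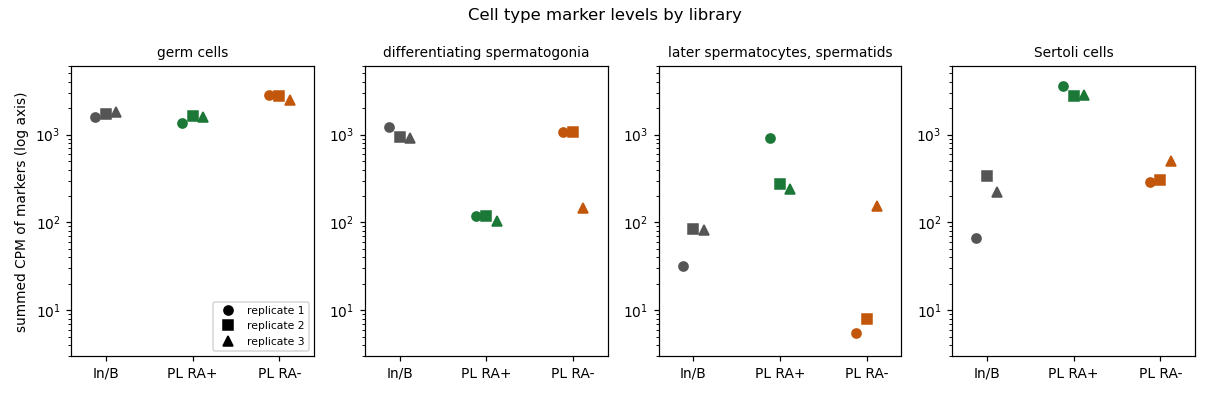
Summed CPM of marker genes (log axis) in each library of In/B spermatogonia, RA-sufficient PL (PL RA+) and RA-deficient PL (PL RA-), with a symbol per replicate. Differentiating spermatogonia markers are at 1082 and 1072 CPM in RA-deficient replicates 1 and 2 and at 147 CPM in replicate 3, and Sertoli markers are highest in RA-sufficient PL.

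Spo11, which encodes the break-making enzyme, lies on mm9 chromosome 2 from 172803201 to 172819077 on the plus strand. Its mRNA was at 5.14, 7.41 and 8.82 CPM in In/B, 44.7, 111 and 129 CPM in RA-sufficient PL, and 31.6, 27.9 and 124 CPM in RA-deficient PL. All PL libraries were above all In/B libraries, and within the PL groups RA-sufficient replicate 1 and RA-deficient replicates 1 and 2 were low. The mean was 7.12 ± 1.85 CPM in In/B and 95.0 ± 44.4 CPM in RA-sufficient PL (SD, n = 3), a 13.9-fold rise with a log2 fold change of 3.79 ± 0.40 (SE) and an adjusted p of 8.39e-05 by edgeR's quasi-likelihood test (Benjamini-Hochberg adjustment, all genes tested). A larger log2 fold change was seen in 4.56% of those genes. A gene was called in a comparison when its absolute log2 fold change was above 1 and its adjusted p was below 0.05.

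Prdm9 encodes the histone methyltransferase that marks break sites, and lies on chromosome 17 from 15680043 to 15701318 on the minus strand. It was at 50.3, 119 and 113 CPM in In/B, 368, 538 and 566 CPM in RA-sufficient PL, and 630, 633 and 636 CPM in RA-deficient PL. The 3 groups did not overlap, and the RA-deficient libraries differed from each other least. From In/B to RA-sufficient PL, Prdm9 rose 5.44-fold, from 94.0 ± 38.0 to 491 ± 107 CPM, with a log2 fold change of 2.44 ± 0.31 and an adjusted p of 2.07e-04.

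Zcwpw1 encodes the reader of the PRDM9 marks and lies on chromosome 5 from 138229026 to 138263849 on the plus strand. It was at 255, 317 and 297 CPM in In/B, 553, 787 and 885 CPM in RA-sufficient PL, and 690, 658 and 839 CPM in RA-deficient PL. Every PL library was above every In/B library, and the PL groups overlapped. The rise from 290 ± 31.8 to 742 ± 170 CPM was 2.66-fold, with a log2 fold change of 1.41 ± 0.18 and an adjusted p of 1.78e-04. Exons of Pilra on the opposite strand cover 18.4% of the Zcwpw1 exons. Pilra had at most 1.97 CPM in any library.

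The other 3 members were not called between In/B and RA-sufficient PL. Mei1, on chromosome 15 from 81900426 to 81957244 on the plus strand, encodes an accessory protein of break formation. It was at 86.1, 129 and 119 CPM in In/B, 217, 153 and 141 CPM in RA-sufficient PL, and 613, 630 and 418 CPM in RA-deficient PL. The groups did not overlap, and RA-deficient PL stood well apart from the others. In RA-sufficient PL the mean was 170 ± 40.6 CPM against 112 ± 22.6 CPM in In/B, a log2 fold change of 0.67 ± 0.20 with a 95% interval from 0.21 to 1.12 and an adjusted p of 0.0168, which passed the p threshold but not the fold threshold.

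Mei4 encodes the partner of REC114 in the break-forming complex and lies on chromosome 9 from 81757277 to 82099614 on the plus strand. It was at 18.3, 17.2 and 21.2 CPM in In/B, 14.2, 11.5 and 13.9 CPM in RA-sufficient PL, and 19.1, 22.6 and 13.8 CPM in RA-deficient PL. All RA-sufficient libraries were below all In/B libraries, and RA-deficient replicate 3 was within the RA-sufficient range. The log2 fold change of RA-sufficient PL against In/B was -0.47 ± 0.21, with a 95% interval from -0.94 to 0.01 and an adjusted p of 0.0767.

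Hells, the chromatin remodeller gene, lies on chromosome 19 from 39005405 to 39045541 on the plus strand. It was at 1033, 895 and 906 CPM in In/B, 658, 947 and 972 CPM in RA-sufficient PL, and 1153, 1115 and 1273 CPM in RA-deficient PL. In/B and RA-sufficient PL overlapped, and RA-sufficient replicate 1 was the lowest of the 9 libraries. The mean of 945 ± 76.6 CPM in In/B differed from 859 ± 175 CPM in RA-sufficient PL by a log2 fold change of -0.08 ± 0.16, with a 95% interval from -0.45 to 0.28 and an adjusted p of 0.667, so that a change of 2-fold in either direction lay outside the interval.

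**Figure D2:**
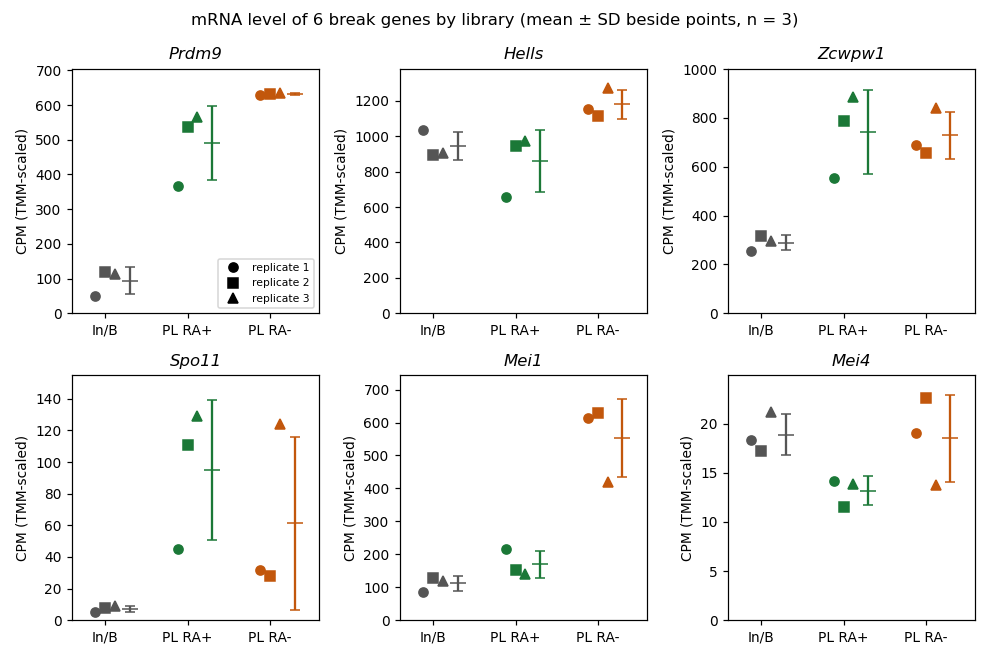
CPM of the 6 measured members in each library (symbol per replicate), with the group mean ± SD (n = 3) beside the points, for In/B, RA-sufficient PL (PL RA+) and RA-deficient PL (PL RA-). Spo11, Prdm9 and Zcwpw1 are higher in every PL library than in any In/B library, Hells overlaps between In/B and RA-sufficient PL, and Mei1 is highest in RA-deficient PL.

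Counted together, 3 of the 6 members were called higher in RA-sufficient PL than in In/B (Spo11, Prdm9 and Zcwpw1), against 26.1% of the 15001 genes tested, while 19.3% of those genes were called lower. The groups did not overlap for 5 members, all but Hells, against 71.5% of the genes tested. The median log2 fold change was 1.04 over the members and 0.04 over all genes tested. Nothing particular to the members is read from these counts.

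The members were then split by this comparison into those called higher at preleptonema and those that were not, as a description with no test. As a share of the RA-sufficient PL mean, the In/B mean was 7.50% for Spo11, 19.2% for Prdm9 and 39.1% for Zcwpw1. It was 65.5% for Mei1, 110% for Hells and 144% for Mei4, which therefore had most or all of their RA-sufficient PL level at In/B. For Mei1 this did not hold against RA-deficient PL, with means of 112 CPM in In/B and 554 CPM there. Zcwpw1 was the member nearest the limit among those called, and Mei1 the nearest among those not called. Whether Mei1, Mei4 and Hells had risen at an earlier spermatogonial stage was not analysed here.

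The other factors of break formation also fell on both sides. Top6bl, listed in the table under the name Gm960, encodes the partner subunit of SPO11. It was at 12.4, 18.5 and 16.4 CPM in In/B, 53.6, 126 and 142 CPM in RA-sufficient PL, and 80.2, 88.6 and 181 CPM in RA-deficient PL. The In/B libraries were all lower than the PL libraries, and the log2 fold change in RA-sufficient PL was 2.82 ± 0.35 with an adjusted p of 1.75e-04. Hormad1, the axis gene, was at 52.8, 78.8 and 86.8 CPM in In/B and 264, 303 and 325 CPM in RA-sufficient PL (log2 fold change 2.09 ± 0.19, adjusted p 3.71e-05), without overlap. Iho1, listed as Ccdc36, was at 98.7, 104 and 104 CPM against 213, 301 and 284 CPM, also without overlap (1.44 ± 0.14, adjusted p 6.48e-05).

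Rec114, whose product binds MEI4, went the other way. It was at 19.7, 24.0 and 16.6 CPM in In/B, 6.84, 5.21 and 8.12 CPM in RA-sufficient PL, and 17.6, 12.3 and 3.37 CPM in RA-deficient PL. All RA-sufficient libraries were below all In/B libraries, and the RA-deficient libraries were spread from the In/B level to below the RA-sufficient one. It fell by 1.52 ± 0.26 on the log2 scale from In/B to RA-sufficient PL (adjusted p 9.16e-04). Of these 4 factors 3 were thus called higher and 1 lower, with a median log2 fold change of 1.76, beside the 26.1% higher and 19.3% lower of all genes tested. Rec114 and Mei4, whose products form a complex, were both lower in each RA-sufficient library than in any In/B library, though only Rec114 was called. The groups did not overlap for 71.5% of all genes tested, so nothing particular to this pair is read from that.

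**Figure D3:**
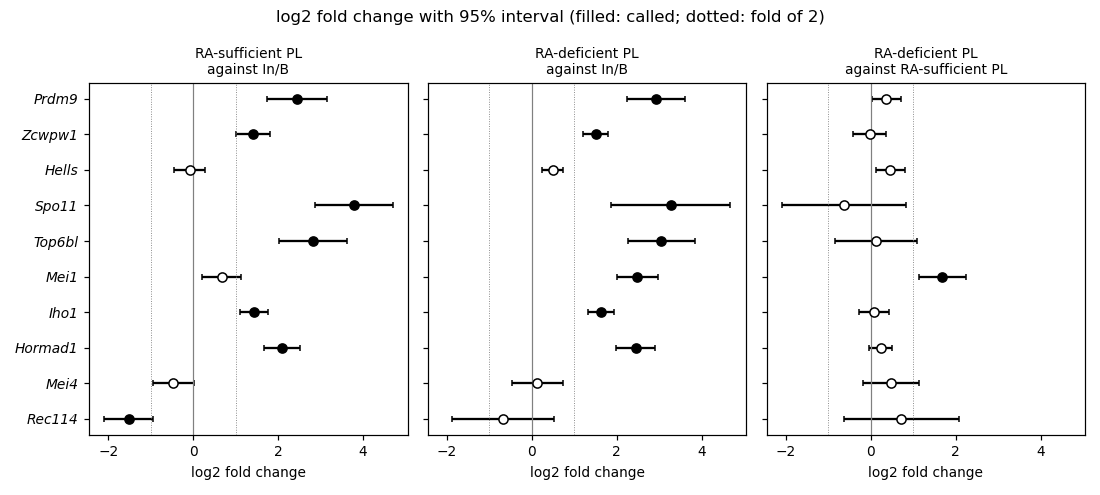
log2 fold change (points) and its 95% interval (bars) for the 6 measured members and 4 further break-formation genes in the 3 comparisons, filled where called, with dotted lines at a fold of 2. Spo11, Prdm9, Zcwpw1, Top6bl, Iho1 and Hormad1 are called higher in both PL groups against In/B, and Mei1 is the only one called between the PL groups.

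Levels were compared between genes per kilobase of exon, as CPM per kb. In In/B, Hells was highest at 131 ± 10.6 and Zcwpw1 next at 114 ± 12.5, which overlapped. Mei1 at 27.0 ± 5.47 and Prdm9 at 21.3 ± 8.60 also overlapped, followed by Mei4 at 4.12 ± 0.449 and Spo11 at 1.82 ± 0.473. In RA-sufficient PL the order was Zcwpw1 at 292 ± 67.0, Hells at 119 ± 24.3, Prdm9 at 111 ± 24.3, Mei1 at 41.2 ± 9.82, Spo11 at 24.2 ± 11.3 and Mei4 at 2.87 ± 0.326. There the libraries of Hells and Prdm9 overlapped, with Prdm9 the lower of the pair within each library, and those of Mei1 and Spo11 did not. Spo11 moved from the lowest of the 6 levels to above Mei4, and Prdm9 from below Hells to beside it.

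In RA-deficient PL the order was Zcwpw1 at 287 ± 38.0, Hells at 164 ± 11.4, Prdm9 at 143 ± 0.673, Mei1 at 134 ± 28.5, Spo11 at 15.6 ± 13.9 and Mei4 at 4.03 ± 0.968 CPM per kb. The libraries of Prdm9 and Mei1 overlapped in this group, and Spo11 was above Mei4 in every library. Among the other factors, Hormad1 was at 42.1 ± 10.3, 172 ± 18.0 and 203 ± 23.1 CPM per kb in In/B, RA-sufficient and RA-deficient PL, and Top6bl at 7.73 ± 1.52, 52.6 ± 23.2 and 57.1 ± 27.3. Top6bl was above its partner Spo11 in each group mean. No exon length was matched to Rec114.

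Against In/B, RA-deficient PL showed the same 3 members higher and Mei1 as well. This comparison shares its In/B libraries with the one above. The log2 fold change was 3.27 ± 0.61 for Spo11 (adjusted p 0.00444), 2.92 ± 0.29 for Prdm9 (2.77e-04), 1.50 ± 0.13 for Zcwpw1 (1.44e-04) and 2.48 ± 0.21 for Mei1 (1.32e-04), each by edgeR's quasi-likelihood test. Thus 4 of 6 members were called higher, against 11.4% of the 14877 genes tested, and 11.8% of those genes were called lower. The members' median log2 fold change was 1.99, and the median over all genes tested was 0.0038.

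Hells and Mei4 were again not called. Hells was higher in each RA-deficient library than in any In/B library, by a log2 fold change of 0.49 ± 0.11 (95% interval 0.24 to 0.73, adjusted p 0.00873), which did not reach the fold threshold. Mei4 had a log2 fold change of 0.13 ± 0.26 (95% interval -0.47 to 0.73, adjusted p 0.732). The groups did not overlap for 5 of the 6 members, against 54.6% of the genes tested, and Mei4 was the member that overlapped. Log2 fold changes here were fitted with scaling factors of the 6 libraries compared and sat above the log2 ratios of the mean CPM scaled over 9 libraries by a median of 0.17 over all genes.

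Of the other break-formation genes, Top6bl (3.05 ± 0.34, adjusted p 4.55e-04), Hormad1 (2.44 ± 0.20, 1.20e-04) and Iho1 (1.63 ± 0.13, 1.26e-04) were called higher in RA-deficient PL than in In/B. Rec114 had a log2 fold change of -0.69 ± 0.52 with an adjusted p of 0.355, and its value depended on the library. With RA-deficient replicate 3 alone, Rec114 was lower than in In/B, with a log2 fold change of -2.50. In the same fit Top6bl was at 3.59, Hormad1 at 2.52 and Iho1 at 1.76. The log2 fold changes of the members were 4.20 for Spo11, 1.98 for Mei1, 2.84 for Prdm9, 1.61 for Zcwpw1, 0.50 for Hells and -0.39 for Mei4. A lone library is assumed in such a fit to vary like those of the other group.

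The direct comparison of the PL groups shares its libraries with both comparisons above. Mei1 was the member called, at 554 ± 118 CPM in RA-deficient PL against 170 ± 40.6 CPM in RA-sufficient PL. This was 3.23-fold higher, with a log2 fold change of 1.69 ± 0.24, a 95% interval from 1.13 to 2.25 and an adjusted p of 0.00412. Thus 1 of 6 members was called higher, against 4.47% of the 15352 genes tested, and 11% of those genes were called lower. With RA-deficient replicate 3 alone, in which Mei1 was at 418 CPM, its log2 fold change was 1.30 (adjusted p 0.0169), and in a test against a fold change of 2 with all libraries its adjusted p was 0.0530.

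Spo11 was the member for which the RA-deficient libraries disagreed most. As a share of the RA-sufficient mean it was at 33.3% and 29.4% in RA-deficient replicates 1 and 2 and at 131% in replicate 3. The log2 fold change between the PL groups was -0.63 ± 0.62 (95% interval -2.09 to 0.83, adjusted p 0.502). It was -1.67 without RA-deficient replicate 3 (adjusted p 0.0155, and then called lower) and 0.39 with replicate 3 alone (adjusted p 0.601). The low Spo11 of replicates 1 and 2 went with their level of differentiating spermatogonia markers, 1082 and 1072 CPM, and the part of that level in the Spo11 values was not tested.

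Prdm9 and Zcwpw1 did not divide in this way. Prdm9 was at 128%, 129% and 130% of the RA-sufficient mean in the 3 RA-deficient libraries, all above the RA-sufficient libraries, with a log2 fold change of 0.37 ± 0.15 (95% interval 0.03 to 0.71, adjusted p 0.111). Zcwpw1 was at 93.0%, 88.7% and 113%, with a log2 fold change of -0.02 ± 0.17 (95% interval -0.42 to 0.37, adjusted p 0.936). For both genes the intervals left out a 2-fold change in either direction. With RA-deficient replicate 3 alone the log2 fold changes were 0.38 for Prdm9 (adjusted p 0.327) and 0.18 for Zcwpw1 (0.655).

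Hells was at 134%, 130% and 148% of the RA-sufficient mean, above every RA-sufficient library, with a log2 fold change of 0.46 ± 0.14 (95% interval 0.12 to 0.80, adjusted p 0.0575). Mei4 was at 145%, 171% and 105%, with a log2 fold change of 0.48 ± 0.28 (95% interval -0.18 to 1.15, adjusted p 0.257). With replicate 3 alone they were 0.57 for Hells (adjusted p 0.143) and 0.07 for Mei4 (0.895). Of the germ cell markers, Dazl was also higher in RA-deficient PL, by a log2 fold change of 0.99 that did not reach the fold threshold. Ddx4 differed by 0.25 and was not called. Their part in these values and in that of Mei1 was not tested. The groups did not overlap for 3 members (Mei1, Prdm9 and Hells), against 47.4% of the genes tested. The members' median log2 fold change was 0.42, beside -0.09 over all genes tested. The 3 members not called at preleptonema with RA had values of 1.69, 0.48 and 0.46 here, and the 3 called had 0.37, -0.02 and -0.63. The RA-sufficient libraries that set the split are also those of this contrast, so this order is no separate result.

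**Figure D4:**
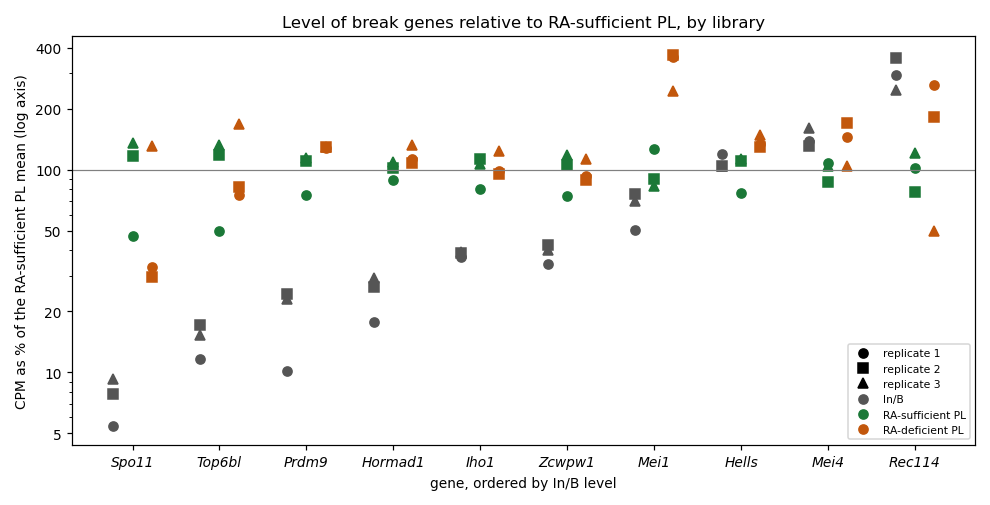
CPM of each break gene in each library as a percentage of its RA-sufficient PL mean (log axis, line at 100%), ordered by the In/B level, with colour for group and symbol for replicate. Spo11 and Rec114 divide RA-deficient replicate 3 from replicates 1 and 2, Prdm9 does not, and Mei1 lies between 246% and 370% in RA-deficient PL.

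Of the 4 other break-formation genes, 0 were called between the PL groups by edgeR or by DESeq2, and 0 had an unadjusted p under 0.05. By edgeR 4.47% of the 15352 genes tested were called higher and 11% lower. With so few genes listed, 0 calls do not set them apart from all genes. The edgeR log2 fold changes were 0.72 for Rec114 (adjusted p 0.404), 0.24 for Hormad1 (0.183), 0.13 for Top6bl (0.849) and 0.08 for Iho1 (0.741). Top6bl was at 74.7%, 82.5% and 168% of its RA-sufficient mean in RA-deficient replicates 1, 2 and 3, and Rec114 at 262%, 183% and 50.1%. Like Spo11, both separated replicate 3 from the other 2 libraries, Top6bl in the same direction as Spo11 and Rec114 in the opposite one.

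Ratios of counts per kb within a library do not depend on how libraries are scaled. The ratio of Prdm9 to Hells was 0.0793, 0.217 and 0.202 in In/B, 0.912, 0.926 and 0.949 in RA-sufficient PL, and 0.891, 0.925 and 0.815 in RA-deficient PL. All 6 PL libraries lay between 0.815 and 0.949, including RA-deficient replicates 1 and 2. The ratio of Prdm9 to Zcwpw1 was 0.113, 0.216 and 0.218 in In/B, 0.382, 0.393 and 0.368 in RA-sufficient PL, and 0.525, 0.553 and 0.436 in RA-deficient PL, so that for these partners each group kept its own range.

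For the genes that make the break, RA-deficient replicates 1 and 2 stood apart from replicate 3. The ratio of Spo11 to its partner Top6bl was 0.216, 0.208 and 0.279 in In/B and 0.435, 0.457 and 0.473 in RA-sufficient PL. In RA-deficient PL it was 0.205 and 0.164 in replicates 1 and 2, below the In/B range, and 0.358 in replicate 3, between the other groups. The ratio of Spo11 to Mei1 was 0.0629, 0.0603 and 0.0780 in In/B, 0.218, 0.765 and 0.963 in RA-sufficient PL, and 0.0543, 0.0466 and 0.312 in RA-deficient PL, with the same 2 RA-deficient libraries below In/B. The ratio of Mei1 to Mei4 was 5.21, 8.35 and 6.24 in In/B, 16.9, 14.8 and 11.3 in RA-sufficient PL, and 35.6, 31.0 and 33.7 in RA-deficient PL, and here the 3 groups did not overlap.

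**Figure D5:**
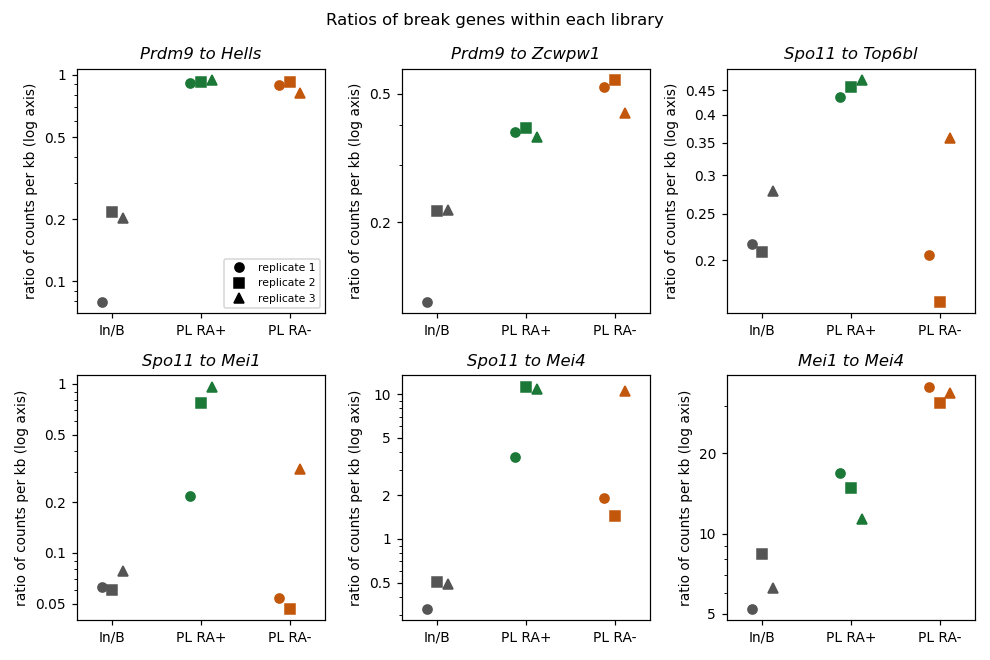
Ratios of counts per kb between pairs of break genes within each library (log axis), by group and replicate. Prdm9 to Hells is between 0.815 and 0.949 in all PL libraries, while Spo11 to Mei1 and Spo11 to Top6bl are low in RA-deficient replicates 1 and 2.

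Genes that act with the members were described from lists. Among partners of hotspot chromatin, Cdyl (log2 fold change -1.35 ± 0.17, adjusted p 1.99e-04) and Ehmt2 (-1.19 ± 0.16, 2.78e-04) fell from In/B to RA-sufficient PL. Cxxc1 (-0.06 ± 0.19, adjusted p 0.812) and Ewsr1 (-0.08 ± 0.11, 0.549) were not called. These products bind PRDM9, and EHMT2 is itself a histone H3 methyltransferase. The list had 2 of 4 called lower, against 19.3% of all genes tested, and a median of -0.63. In RA-deficient PL against In/B, Cdyl was the 1 gene called lower (-1.08 ± 0.22, adjusted p 0.00625), against 11.8% of all genes, and the list median was -0.05. With replicate 3 alone the log2 fold change of Cdyl was -1.55.

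HELLS also works in DNA methylation, and 5 of 6 genes listed for that role fell from In/B to RA-sufficient PL while Hells itself was not called. CDCA7 and ZBTB24 act with HELLS at repeats, DNMT1, DNMT3A and DNMT3B are DNA methyltransferases, and UHRF1 recruits DNMT1. Cdca7 was at 262, 198 and 197 CPM in In/B, 15.2, 37.5 and 38.4 CPM in RA-sufficient PL, and 56.8, 51.3 and 53.6 CPM in RA-deficient PL. Dnmt1 was at 1178, 1197 and 1193 CPM in In/B, 306, 240 and 214 CPM in RA-sufficient PL, and 657, 658 and 323 CPM in RA-deficient PL. Both genes kept the 3 groups apart, with RA-deficient PL in between.

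In RA-sufficient PL against In/B, 5 of these 6 genes were called lower: Cdca7 (-2.79 ± 0.33), Dnmt3b (-2.39 ± 0.32), Dnmt1 (-2.17 ± 0.15), Dnmt3a (-1.65 ± 0.11) and Uhrf1 (-1.25 ± 0.19). This compares with 19.3% of all genes tested. The list median was -1.91, and Zbtb24 had 0.60 ± 0.23 (adjusted p 0.0432, below the fold threshold). In RA-deficient PL against In/B, Dnmt3b (-1.99 ± 0.33), Cdca7 (-1.86 ± 0.16) and Uhrf1 (-1.23 ± 0.14) were called lower, 3 of 6 against 11.8% of all genes, with a list median of -1.09. With replicate 3 alone 5 were called lower, Dnmt1 (-1.81) and Dnmt3a (-1.53) being added, and Zbtb24 was called higher (1.07), while 21.8% of all genes were called lower and 15.7% higher. Between the PL groups Dnmt1 was called higher in RA-deficient PL (1.10 ± 0.30, adjusted p 0.0353). With replicate 3 alone it was not called (0.35, adjusted p 0.306).

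Downstream of the break, 2 of 7 genes that process the DNA ends were called lower in RA-sufficient PL than in In/B, namely the nuclease genes Dna2 (-2.30 ± 0.27, adjusted p 1.31e-04) and Exo1 (-1.22 ± 0.11, 4.01e-05), with a list median of -0.30. Of all genes tested 19.3% were called lower. Atm, the kinase that responds to breaks, was at 393, 478 and 447 CPM in In/B, 571, 638 and 528 CPM in RA-sufficient PL, and 863, 899 and 654 CPM in RA-deficient PL. The groups did not overlap, and Atm was called higher in RA-deficient PL against In/B (1.05 ± 0.14, adjusted p 0.00104), where Dna2 was called lower (-1.36 ± 0.35, 0.0176). With replicate 3 alone the log2 fold change was 0.65 for Atm, below the fold threshold, -2.06 for Dna2 and -1.49 for Exo1. Between the PL groups 0 of the 7 were called by edgeR or DESeq2, and 3 had an unadjusted p under 0.05. By edgeR 4.47% of all genes tested there were called higher and 11% lower, so 0 calls do not set this short list apart.

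Of 19 strand exchange genes, 8 were called higher and 2 lower in RA-sufficient PL against In/B, with a median of 0.18, where 26.1% of all genes tested were called higher and 19.3% lower. The largest changes were in Rad51ap2 (6.45 ± 0.37), Meiob (5.78 ± 0.33), which encodes a single-strand DNA binding protein, and Spata22 (4.11 ± 0.27), which encodes the partner of MEIOB. Exons of Olfr20 on the same strand cover 27.9% of the Spata22 exons. Against In/B, RA-deficient PL also had 8 higher and 2 lower, with a median of 0.81, where 11.4% and 11.8% of all genes were called. With replicate 3 alone the median was 0.62. Of 8 chromosome axis genes, 6 were called higher with RA and 7 without it, with medians of 1.73 and 1.99, against 26.1% and 11.4% of all genes, led with RA by Rad21l (3.58 ± 0.16), Sycp3 (2.48 ± 0.18) and Sycp2 (2.18 ± 0.23). With replicate 3 alone the axis median against In/B was 2.14, and Rec8, a cohesin gene, was lower (-3.51), as it was against RA-sufficient PL (-2.61). With all RA-deficient libraries Rec8 was at -1.32 ± 0.76 and -0.53 ± 0.61 in these comparisons, with overlap and not called. Its In/B libraries ran from 17.5 to 98.4 CPM. With all 3 libraries, between the PL groups edgeR and DESeq2 each called 0 genes of both lists. By edgeR 4.47% of all genes tested there were called higher and 11% lower. In these lists 4 strand exchange and 2 axis genes had an unadjusted p under 0.05. The share of all genes under that limit was not taken, so nothing particular to the lists is read from these counts.

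The start regions are shown to set members of both sets side by side. RefSeq windows in the table of build GRCm38.p6 were found for 5 of the 6 members, 7 windows in all, with 2 each for Prdm9 and Zcwpw1, for which the window nearest the GENCODE start is shown. Shown 5′ to 3′ are the 250 bases before the start site for 2 members that were called higher at preleptonema (Prdm9 and Zcwpw1) and 2 that were not (Hells and Mei4), each located in mm9 by an exact match. Capitals mark the motifs found.
Prdm9, mm9 chr17:15701319-15701568, minus strand: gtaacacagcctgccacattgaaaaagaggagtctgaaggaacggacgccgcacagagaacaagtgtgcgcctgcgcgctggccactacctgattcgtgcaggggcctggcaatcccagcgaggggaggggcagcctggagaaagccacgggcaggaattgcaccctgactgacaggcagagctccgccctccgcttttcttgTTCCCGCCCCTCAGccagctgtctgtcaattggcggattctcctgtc
Zcwpw1, mm9 chr5:138228780-138229029, plus strand: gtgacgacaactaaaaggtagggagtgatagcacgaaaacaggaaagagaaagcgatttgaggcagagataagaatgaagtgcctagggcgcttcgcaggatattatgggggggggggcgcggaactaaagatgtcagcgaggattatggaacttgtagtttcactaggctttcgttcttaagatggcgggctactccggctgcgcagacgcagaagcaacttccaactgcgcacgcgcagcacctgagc
Hells, mm9 chr19:39005230-39005479, plus strand: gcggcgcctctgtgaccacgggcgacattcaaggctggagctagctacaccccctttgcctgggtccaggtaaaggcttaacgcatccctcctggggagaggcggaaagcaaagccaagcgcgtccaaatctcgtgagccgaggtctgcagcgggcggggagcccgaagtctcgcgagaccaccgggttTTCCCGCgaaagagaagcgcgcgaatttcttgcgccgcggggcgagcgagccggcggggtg
Mei4, mm9 chr9:81757027-81757276, plus strand: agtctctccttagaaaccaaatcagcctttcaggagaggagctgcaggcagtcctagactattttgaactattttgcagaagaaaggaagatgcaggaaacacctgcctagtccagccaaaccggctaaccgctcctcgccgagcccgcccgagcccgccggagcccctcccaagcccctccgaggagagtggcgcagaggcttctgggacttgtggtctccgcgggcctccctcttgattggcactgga

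The windows were searched on both strands for the E2F core TTCCCGC, the E-box CACGTG and the letters CNCCTCAG, given for STRA8 sites. In 32851 RefSeq windows of the same length, these occurred in 3.8%, 6.0% and 6.4%. The Prdm9 window held TTCCCGC from 47 to 41 bases before the start and CCCCTCAG from 41 to 34 bases before it, which share 1 base. The Hells window held TTCCCGC from 61 to 55 bases before the start. The Zcwpw1 and Mei4 windows held none of the 3 motifs, and neither did the other window of Prdm9, with 9 CpG, nor that of Zcwpw1, with 13. Thus the E2F core was present in 1 member of each set.

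The windows differed more in CpG content. The Hells window held 28 CpG, more than 92.4% of all windows, against 16 for Zcwpw1, 13 for Prdm9 and 12 for Mei4, with a median of 6 over all windows. A match of letters is a description of the sequence and was not tested as a binding site.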

How the data were processed

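The values are raw counts of reads per gene, made and deposited by the authors as 1 table of 9 libraries. Per the sources used, single-end reads of stranded mRNA libraries were trimmed with cutadapt 1.9, aligned to mm9 with STAR 2.5.2b and counted with featureCounts. The annotation and strand setting are not given in the sources used here, so genes overlapping on opposite strands may share counts. All 9 columns were matched by name and 0 were unused. Names turned into dates (26) and repeated names (2) include no gene reported here.

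Libraries were grouped by their titles. The methods name independent cell preparations without tying libraries to them, so p-values measure the spread between these libraries. Each pair of groups was tested separately with edgeR 4.0.16 (R 4.3.3, limma 3.58.1), with TMM scaling, filterByExpr, the quasi-likelihood test and Benjamini-Hochberg correction over every gene tested, after checks on simulated data. Genes were called where the adjusted p was below 0.05 and the log2 fold change was over 1 in size. CPM were scaled by TMM over all 9 libraries. Members and lists were chosen with earlier results of these data known, and the within-library ratios and the use of RA-deficient replicate 3 alone were chosen after seeing the data.

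All members are named, as are genes of the break-formation, hotspot, HELLS and end-processing lists, with at most 3 examples (largest called change) from the strand exchange and axis lists. Kit, Sohlh1, Dmrt1, Dazl, Cyp26a1, Stra8, Vim and Col1a1 were picked from the marker lists after their values were seen. Rec8 was picked from the axis list after its values were seen. So was the setting of Rad51ap2, Sycp3 and Rec8 beside the spermatogonial markers. The 2 genes most like each member had the smallest root mean square difference in centred log2 CPM (prior count 2) among genes averaging 10 CPM or more. Ankrd31, Zcwpw2 and Rhox5 were not analysed here.

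The alternatives changed the filter (50 counts on average, or none), the scaling (library size only, or RLE), the libraries fitted (all 9 together, or 1 left out), the model (a replicate block, DESeq2 1.42.0, or testing against 2-fold) and the thresholds. Gene positions and exon lengths came from GENCODE for mm9, and promoter sequences from RefSeq. Plots used Python 3.11.15 and matplotlib 3.10.9.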

Additional observations from a re-analysis of the deposited data

Results flagged for a closer look

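Mei1 differed between the PL groups in its change from In/B. The difference itself was tested as RA-deficient minus RA-sufficient PL and was 1.69 on the log2 scale, with an adjusted p of 0.00412 by edgeR's quasi-likelihood test, higher in 3 of 3 RA-deficient libraries than in any RA-sufficient library. Groups of 3 libraries are too small for a check of single outlying libraries.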

How the results depend on the processing

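Under 17 alternatives to RA-deficient PL against In/B, and 17 to RA-deficient against RA-sufficient PL, the number of genes called moved by over 1.5 times in these cases. Against a fold change of 2, 1207 of 3446 genes against In/B and 741 of 2383 against RA-sufficient PL were called, with 0 in place of 1 member. With adjusted p alone they were 5459 and 3629, and at an adjusted p of at most 0.01 973 between the PL groups. With RA-deficient replicate 3 alone 6025 genes were called against In/B. Leaving out each library gave 1190 to 4484 genes between the PL groups (1227, 1190 and 1283 without RA-sufficient replicates 1, 2 and 3, and 4484 without RA-deficient replicate 3) and 1 to 2 members, Spo11 being added without RA-deficient replicate 3. RA-sufficient PL against In/B kept its number of called genes within 1.5 times under 16 alternatives, with 3 members called in each except adjusted p alone, which added Mei1 (4).

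Some values changed sign, each without a call in the setting where the sign changed. With library size only, which shifted the median of all genes by -0.32 against In/B and -0.18 between the PL groups, Mei4 in RA-deficient PL against In/B was -0.18, and between the PL groups Iho1 was -0.11 and Top6bl -0.07. With all 9 libraries in 1 fit Zcwpw1 between the PL groups was 0.0048. With RA-deficient replicate 3 alone, Mei4 against In/B was -0.39, and between the PL groups Spo11 was 0.39, Zcwpw1 0.18 and Rec114 -1.0. Leaving out each library gave -0.18 to 0.07 for Hells in RA-sufficient PL against In/B, -0.06 to 0.31 for Mei4 in RA-deficient PL against In/B and, between the PL groups, -0.18 to 0.09 for Zcwpw1, -0.04 to 0.17 for Iho1 and -0.34 to 0.35 for Top6bl. Without RA-deficient replicate 3, Rec114 (1.16, adjusted p 0.0245) and Spo11 (-1.67, 0.0155) were called between the PL groups. The cause was not tested.

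The replicate numbers did not pair the samples (2 of 9 pairs of same-numbered libraries had a correlation of deviations over 0.1, and 3 of 18 library comparisons were closest to their own number). With the replicate block, 6373, 3208 and 1765 genes were called in the 3 comparisons, and 3, 4 and 1 members. With 3 libraries a group and SDs such as that of Spo11 in RA-deficient PL, changes near 2-fold were not detectable for that gene.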

Other observations

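The genes whose pattern over the 9 libraries lay closest to each member were found among 9697 genes by the root mean square difference of centred log2 CPM. Closest to Spo11 were Gpr19 (0.25) and Mfsd13b (0.33). Gpr19 was at mean CPM of 6.72, 73.3 and 45.7 in In/B, RA-sufficient and RA-deficient PL. Closest to Mei1 were Hcn3 (0.19), at 24.2, 37.5 and 122 CPM, and Gm773 (0.20), at 35.5, 52.0 and 175 CPM. Closest to Prdm9 were Magea4 (0.15), at 6.66, 35.9 and 41.1 CPM, and Dip2c (0.18). The distances were smaller for Zcwpw1 (Foxred1, 0.08, and Fancc, 0.09), Hells (Tmem248 and Kansl1, both 0.08) and Mei4 (Rabggta, 0.11, and Tor2a, 0.12), whose own values varied less.

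Among the members the pair with the smallest distance was Mei4 and Hells (0.36), followed by Zcwpw1 and Hells (0.64) and Prdm9 and Zcwpw1 (0.70), and the largest distance was between Spo11 and Mei4 (1.93). These distances share libraries and scaling and are descriptions with no test. RA-sufficient replicate 1 had the lowest Spo11, Prdm9, Zcwpw1 and Hells of its group and the highest Mei1, and also the highest levels in its group of later germ cell markers (907 CPM) and of Stra8 (444 CPM, beside 126 and 121 CPM).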
